A study of Homo sapiens with 10 samples.

Results

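The nuclear genes of the respiratory chain are taken here as the 86 gene symbols, of the 23426 measured, whose names begin with NDUF, SDH, UQCR, COX or ATP5 and follow the numbering of subunits of the 5 complexes. They comprised 38 genes of complex I, 4 of complex II, 10 of complex III, 14 of complex IV and 20 of complex V. The rule reads symbols only and uses no measured value. The established breast cancer lines MDA-MB-468 (basal-like, triple-negative) and ZR75-1 (luminal) were grown as cultures and treated for 6 h with the solvent DMSO or with 1 μM PKC412 (midostaurin, an inhibitor of many kinases), and their RNA was sequenced. There were 4 groups and 10 samples, with 2 DMSO and 3 PKC412 samples of each line, although the methods describe triplicates. Some figure legends of the study give a lower dose. Each subtype is thus represented by 1 line, and a difference between the lines cannot be told apart from a difference between the subtypes. The methods place the replication at the treatment of the cells, but nothing states that replicates were separate cultures, so p-values measure only the spread between these samples. In bulk RNA, a change in the number of cells of a kind and a change of RNA per cell cannot be told apart.

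Complexes I to IV pass electrons from NADH and succinate to oxygen across the inner mitochondrial membrane, and complex V (ATP synthase) uses the resulting proton gradient to make ATP. Complex II (succinate dehydrogenase) is also an enzyme of the citric acid cycle and is encoded wholly in the nucleus. The other complexes combine nuclear subunits, made in the cytosol and imported, with a few core subunits encoded in mitochondrial DNA, which were not analysed here. Most nuclear subunits come from 1 gene each, but several subunits of cytochrome c oxidase (complex IV) have a widely expressed form and a form typical of muscle or testis. The symbol rule also takes in NDUFA4, now known as a subunit of cytochrome c oxidase (COXFA4) and counted with complex I here by its name, the copies UQCRHL, UQCRBP1, ATP5EP2 and ATP5L2, the readthrough transcript ATP5J2-PTCD1, and ATP5S and ATP5SL, now DMAC2L and DMAC2, which are not subunits of the synthase.

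All values are FPKM (fragments scaled by transcript length and sequencing depth) as deposited. The number of reads behind them is unknown, and the 10 samples' FPKM summed to 599228 to 835069. In each line every PKC412 sample had a lower FPKM sum than every DMSO sample. All 5 basal markers listed for MDA-MB-468 (EGFR, KRT5, KRT14, KRT17, VIM) were higher there, and all 5 luminal markers (ESR1, GATA3, FOXA1, KRT8, KRT18) were lower, in both contrasts between the lines. Of 4 markers of other cells, PTPRC (leukocytes) and COL3A1 (fibroblasts) were at or near 0 in all samples, COL1A1 had group means of 0.921 to 8.94 FPKM with the highest in ZR75-1 with PKC412, and PECAM1 had group means of 0.0139 to 0.827 FPKM with the highest in MDA-MB-468 with PKC412.

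The respiratory chain genes were among the most abundant transcripts of both lines. Together they made up 3.74% to 5.12% of a sample's FPKM sum. Of the 86 genes, 7 averaged over 1000 FPKM across the 10 samples, 59 over 100 FPKM, 17 between 10 and 100 FPKM, 4 between 1 and 10 FPKM and 6 below 1 FPKM. The most abundant was ATP5I (the e subunit of ATP synthase, ATP5ME) at 1927 FPKM, the 61st of all genes, followed by ATP5E (the epsilon subunit, ATP5F1E) at 1866 FPKM, NDUFS5 at 1495 FPKM and COX7C at 1415 FPKM, and these 4 lay among the 100 most abundant genes. At the other end stood the tissue forms of complex IV subunits and NDUFA4L2, while the lowest of the genes for widely used subunits was NDUFA5 of complex I, at 5.38 FPKM. The order of abundance was similar in the lines, with r = 0.964 between the log2 DMSO means across the 86 genes, which are not independent replicates.

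The complexes were far from equal in mRNA. In DMSO, the summed FPKM of complex I was 15267 and 13359 in MDA-MB-468 and 16070 and 12250 in ZR75-1. Complex II summed to 264 and 309 FPKM in MDA-MB-468 and to 155 and 239 FPKM in ZR75-1, the only complex whose sum stayed below 1000 FPKM. For complex III the values were 3223 and 3110 in MDA-MB-468 against 2378 and 2272 in ZR75-1, and for complex IV they were 8436 and 7828 against 9637 and 9231. Complex V showed the widest gap, with 8232 and 7802 FPKM in MDA-MB-468 and 14512 and 12340 FPKM in ZR75-1. The ratios of the DMSO means, MDA-MB-468 over ZR75-1, were 1.01, 1.46, 1.36, 0.862 and 0.597 for complexes I to V and 0.858 for all 86 genes. These sums are carried by their most abundant genes, and the differences of ATP5I, ATP5E and ATP5EP2 together exceeded the whole gap of complex V.

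**Figure D1:**
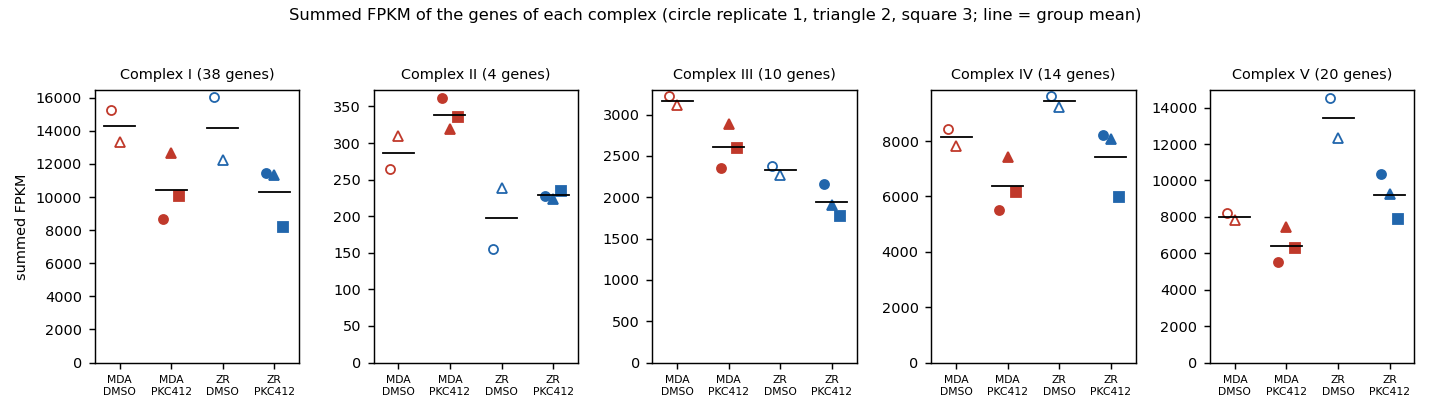
Summed FPKM (y axes, linear from 0) of the genes of each respiratory complex in every sample of MDA-MB-468 (red) and ZR75-1 (blue) with DMSO (open) or PKC412 (filled), with symbols for replicate numbers and a line at each group mean. Complex V is lower in MDA-MB-468, complexes II and III are higher there, and complex II alone has a higher mean with PKC412 than with DMSO in both lines.

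Promoters of nuclear respiratory genes are known for sites of NRF1 (nuclear respiratory factor 1), which coordinates them with mitochondrial DNA. RefSeq windows of 300 bases (250 before to 50 after the start, GRCh38.p14) were matched for 67 of the 86 genes and searched on both strands for GCGCATGCG or GCGCACGCG, the core letters used here for NRF1. These letters were found in 15 of 67 windows (22.4%), in 4% of all 27305 windows in the table and in 6.8% of the 11854 windows of tested genes. The windows below were picked among the 15 that hold the letters, to show them in genes described below as higher (NDUFS6), lower (NDUFA3, COX6A1, ATP5I) or variable (SDHD), while the windows of SDHA, UQCRH, UQCRC2 and ATP5E do not hold them. Each is cut off at the first annotated start of transcription, and capitals mark the matches. They lie at chr19:54102605-54102727 (plus strand), chr5:1801157-1801399 (plus), chr11:112086623-112086772 (plus), chr12:120437863-120438089 (plus) and chr4:674339-674526 (minus).
NDUFA3: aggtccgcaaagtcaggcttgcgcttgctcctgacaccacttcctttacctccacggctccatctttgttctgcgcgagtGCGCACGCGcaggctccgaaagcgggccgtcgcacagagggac
NDUFS6: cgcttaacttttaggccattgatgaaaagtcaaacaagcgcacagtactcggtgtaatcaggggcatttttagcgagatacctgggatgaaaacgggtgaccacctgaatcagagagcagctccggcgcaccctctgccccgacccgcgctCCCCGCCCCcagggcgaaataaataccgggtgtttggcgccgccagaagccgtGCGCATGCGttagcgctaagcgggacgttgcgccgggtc
SDHD: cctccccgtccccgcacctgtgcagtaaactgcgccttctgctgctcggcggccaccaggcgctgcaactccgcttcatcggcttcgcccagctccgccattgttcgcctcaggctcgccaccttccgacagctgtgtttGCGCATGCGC
COX6A1: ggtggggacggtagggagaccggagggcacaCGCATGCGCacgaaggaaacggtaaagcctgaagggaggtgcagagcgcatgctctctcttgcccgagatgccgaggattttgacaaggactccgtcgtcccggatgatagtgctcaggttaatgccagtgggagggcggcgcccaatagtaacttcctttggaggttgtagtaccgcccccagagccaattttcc
ATP5I: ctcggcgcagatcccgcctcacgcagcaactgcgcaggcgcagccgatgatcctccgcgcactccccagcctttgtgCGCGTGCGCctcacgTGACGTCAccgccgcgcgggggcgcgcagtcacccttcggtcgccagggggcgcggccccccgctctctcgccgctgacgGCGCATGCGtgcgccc

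The capitals in NDUFS6 also mark CCCCGCCCC, the reverse of the SP1 letters GGGGCGGGG, those in ATP5I also mark TGACGTCA, the CREB letters, and in SDHD the NRF1 letters match on both strands and overlap. Of the other letters searched, CCGGAAG (ETS or GABP) stood in 18 of the 67 windows (26.9%, against 10.7% of all windows and 17.7% of those of tested genes). AAGATGGCG (YY1) stood in 8 (11.9% against 1.85% and 3.58%), TGACGTCA in 5 (7.46% against 1.98% and 3.05%), GGGGCGGGG in 9 (13.4% against 16% and 26.8%) and TCAAGGTCA (ERR alpha) in 1 (1.49% against 0.359% and 0.186%). The NRF1 letters were held by 3 of the 11 matched genes that were higher in MDA-MB-468 in both contrasts below, 4 of 15 that were lower and 8 of 41 others. Such matches describe the letters and not occupied sites.

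The first comparison asked which of these genes the basal-like and the luminal line express at different levels. The chain was not shifted as a whole: genes of the same complex lay on opposite sides, with NDUFS5, SDHA, UQCRH and ATP5O higher in MDA-MB-468 and NDUFA3, UQCRC2, COX6A1 and ATP5E lower. Differences were tested with limma on log2(FPKM + 1) over the 16071 genes with a mean above 0.1 FPKM in at least 1 group, which all 86 genes were, and the Benjamini-Hochberg adjusted p had to be under 0.05. In DMSO, 14 of the 86 were higher in MDA-MB-468, where 26.5% of all genes tested were, and 20 were lower, where 15.9% of all genes were. In PKC412, 18 were higher (37% of all genes) and 25 were lower (21.6%). The DMSO and PKC412 contrasts share no samples, and 14 genes were higher in both (24.9% of all genes) and 19 were lower in both (14.9%), which gives 33 genes with the same call. Both contrasts come from 1 fit with a common error estimate per gene, so the 2 calls of a gene are not independent. With the compared groups fitted alone, 26 of the 33 kept both calls. By complex, 5 were higher and 8 lower in complex I, 1 and 0 in complex II, 3 and 3 in complex III, 1 and 2 in complex IV, and 4 and 6 in complex V. All 5 MDA-MB-468 samples exceeded all 5 ZR75-1 samples for 17 genes (29.7% of all genes), and the reverse held for 15 (18.1%).

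The median log2 line difference of the 86 genes was -0.03 in DMSO and -0.08 in PKC412, against 0.11 and 0.19 over all genes tested. In DMSO, 18 of the 86 (20.9%) differed by over 1 on this scale, against 24.7% of all genes, 16.9% of cytosolic ribosomal protein genes and 39.5% of mitochondrial ribosomal protein genes. The sign was the same in both contrasts for 89.5% of the 86 genes (34 above 0 and 43 below) and 87.6% of all genes. Across the 86 genes the line differences in DMSO and PKC412 had r = 0.972 (0.901 over all genes). Without the second DMSO replicate of MDA-MB-468, the median of the 86 genes in DMSO was -0.05, against 0.06 over all genes tested.

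**Figure D2:**
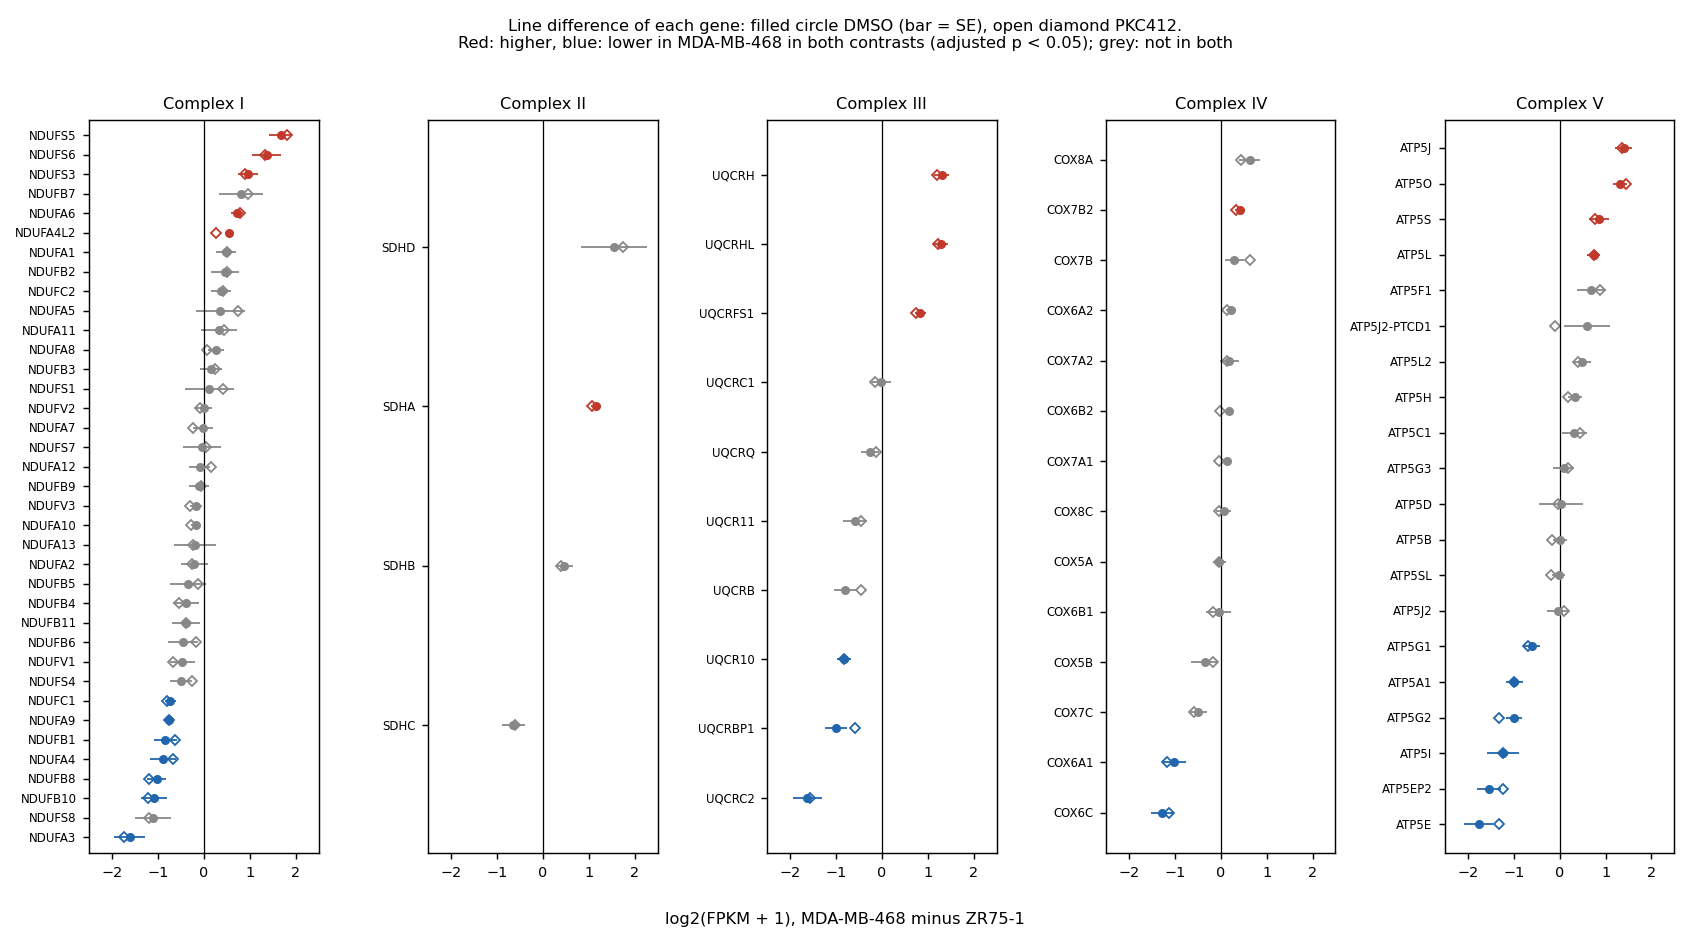
Log2 line difference (MDA-MB-468 minus ZR75-1, log2(FPKM + 1) scale) of 85 of the 86 genes in DMSO and in PKC412, grouped by complex and marked by the limma calls, with bars for the SE of the DMSO value. Each complex holds genes on both sides of 0, the values range from -1.77 to 1.81, and the values in both agents lie close together for most genes.

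Complex I (NADH dehydrogenase) takes electrons from NADH, and in NDUFS5 it gave the largest positive difference of the 86 genes. NDUFS5, an accessory subunit on the intermembrane side, measured 2899 and 2486 FPKM with DMSO and 1623, 2603 and 1921 FPKM with PKC412 in MDA-MB-468, against 909 and 780 FPKM with DMSO and 669, 574 and 487 FPKM with PKC412 in ZR75-1. Every MDA-MB-468 sample exceeded every ZR75-1 sample. The log2 difference was 1.67 ± 0.25 (SE) in DMSO (limma adjusted p = 0.000889) and 1.81 ± 0.20 in PKC412 (limma adjusted p = 0.000121). NDUFS6, a zinc-binding accessory subunit, measured 1254 and 985 FPKM with DMSO and 568, 851 and 707 FPKM with PKC412 in MDA-MB-468. Its ZR75-1 values were 556 and 333 FPKM with DMSO and 354, 269 and 225 FPKM with PKC412, so the lines were separate by a narrow margin. The log2 differences of NDUFS6 were 1.37 ± 0.31 and 1.33 ± 0.26. NDUFS3, a core subunit, had DMSO values of 371 and 317 FPKM against 199 and 156 FPKM, a log2 difference of 0.96 ± 0.21. The accessory NDUFA6 had DMSO values of 143 and 145 FPKM against 87.3 and 85.9 FPKM, a difference of 0.73 ± 0.13. NDUFA4L2, the paralogue of NDUFA4 that is known as a target of hypoxia signalling, stayed below 1 FPKM in every sample, with 0.882 and 0.599 FPKM against 0.207 and 0.161 FPKM in DMSO, and was called at these low values too.

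The complex I genes that were lower in MDA-MB-468 included many accessory subunits. NDUFA3 measured 540 and 422 FPKM with DMSO and 252, 371 and 303 FPKM with PKC412 in MDA-MB-468, against 1846 and 1168 FPKM with DMSO and 1187, 1264 and 715 FPKM with PKC412 in ZR75-1. The highest MDA-MB-468 sample thus lay below the lowest ZR75-1 sample, and the log2 difference was -1.62 ± 0.34 in DMSO (limma adjusted p = 0.00526) and -1.75 ± 0.28 in PKC412. NDUFB10 had 314 and 268 FPKM against 790 and 489 FPKM in DMSO, a difference of -1.10 ± 0.29. NDUFB8, a membrane-arm subunit much used as a protein marker of assembled complex I, had 183 and 165 FPKM against 388 and 329 FPKM in DMSO (-1.03 ± 0.20). The accessory NDUFA9 measured 70.3 and 75.2 FPKM against 119 and 130 FPKM in DMSO (-0.77 ± 0.10), and NDUFC1 had a difference of -0.73 ± 0.12. NDUFA4 (60.6 and 77 FPKM against 90.9 and 179 FPKM, -0.89 ± 0.28) and NDUFB1 (-0.84 ± 0.26) were less firm: of 38 refits, 19 in each contrast, their calls were lost in 15 and 11, including after adjustment for GC content. Several core subunits were called in neither contrast, among them NDUFS1, NDUFV2 and NDUFS7. As deposited, NDUFV1 and NDUFS8 were called lower in PKC412 alone, at -0.68 ± 0.22 and -1.21 ± 0.32. After adjustment for GC content both passed in DMSO as well, at -0.58 (limma adjusted p = 0.0149) and -1.21 (limma adjusted p = 0.00136). The adjustment also raised the DMSO calls over all genes tested, from 4266 to 6032 higher and from 2556 to 3318 lower. It took out spread between replicates with no degrees of freedom charged for it. Passes gained by it, here and below, thus come from a less strict fit.

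Complex II consists of the flavoprotein SDHA, the iron-sulfur protein SDHB and the membrane anchors SDHC and SDHD, and its genes did not differ in 1 direction. SDHA, which holds the succinate site, measured 140 and 148 FPKM with DMSO and 155, 144 and 153 FPKM with PKC412 in MDA-MB-468, against 58.5 and 69.6 FPKM with DMSO and 72.2, 69.7 and 72.8 FPKM with PKC412 in ZR75-1. The lowest MDA-MB-468 sample was far above the highest of ZR75-1, with a log2 difference of 1.16 ± 0.11 in DMSO (limma adjusted p = 6.77e-05) and 1.06 ± 0.09 in PKC412 (limma adjusted p = 2.28e-05), and the call of SDHA held in all 38 refits. SDHB had 78.7 and 93.7 FPKM against 50.7 and 75.8 FPKM in DMSO, a difference of 0.46 ± 0.19 that did not pass (limma adjusted p = 0.0807). SDHC ran the other way, with 34.7 and 41.1 FPKM against 43.6 and 81 FPKM in DMSO (-0.64 ± 0.25, limma adjusted p = 0.0753), and passed in PKC412 (-0.61 ± 0.21, limma adjusted p = 0.0343). SDHD varied most among replicates: 10.9 and 26.8 FPKM with DMSO and 66.6, 35.9 and 48.6 FPKM with PKC412 in MDA-MB-468, and 1.86 and 12.6 FPKM with DMSO and 13, 10 and 19.8 FPKM with PKC412 in ZR75-1. Its DMSO samples overlapped between the lines, its PKC412 samples did not, and its log2 difference was 1.55 ± 0.72 in DMSO (limma adjusted p = 0.122) and 1.75 ± 0.59 in PKC412 (limma adjusted p = 0.0319). After adjustment for GC content, SDHB (0.59, limma adjusted p = 0.0229), SDHC (-0.62, limma adjusted p = 0.0338) and SDHD (1.66, limma adjusted p = 0.0362) passed in DMSO as well. Within MDA-MB-468 with DMSO, the mRNA of SDHA was thus several times that of SDHD on the FPKM scale, although the complex takes both in equal number.

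Complex III (cytochrome bc1) passes electrons from quinol to cytochrome c, and its genes were divided too. UQCRH, the hinge protein that helps cytochrome c1 bind cytochrome c, measured 1149 and 1131 FPKM with DMSO and 803, 1030 and 881 FPKM with PKC412 in MDA-MB-468, against 465 and 456 FPKM with DMSO and 444, 388 and 347 FPKM with PKC412 in ZR75-1. Its log2 difference was 1.31 ± 0.16 in DMSO (limma adjusted p = 0.000332) and 1.20 ± 0.13 in PKC412. UQCRFS1, the Rieske iron-sulfur protein, had 350 and 354 FPKM against 184 and 210 FPKM in DMSO (0.84 ± 0.12), a call lost in 2 of 38 refits, those with adjustment for GC content. On the lower side stood UQCRC2, a core subunit of the matrix face, with 44.4 and 53.9 FPKM in DMSO and 59.2, 51 and 57.8 FPKM in PKC412 in MDA-MB-468. In ZR75-1 it had 123 and 191 FPKM in DMSO and 182, 115 and 221 FPKM in PKC412. The lines did not overlap for UQCRC2, and the log2 difference was -1.62 ± 0.31 in DMSO (limma adjusted p = 0.00338). Its partner core subunit UQCRC1 had 241 and 215 FPKM against 264 and 199 FPKM in DMSO, and its difference of -0.01 ± 0.21 was not called. UQCR10, a small subunit, was lower by a tight margin, with 233 and 217 FPKM against 432 and 373 FPKM in DMSO (-0.83 ± 0.15). UQCRB, which lies at the quinone-binding region, was called lower in DMSO (-0.79 ± 0.25) and did not pass in PKC412 (-0.46 ± 0.20, limma adjusted p = 0.0824). After adjustment for GC content, UQCRB passed in PKC412 (-0.66, limma adjusted p = 0.0391) and not in DMSO (-0.49, limma adjusted p = 0.193).

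Complex IV (cytochrome c oxidase) hands the electrons to oxygen, and 3 of its 14 genes by symbol were called in both contrasts, or 4 with NDUFA4. COX6C, a small membrane subunit, measured 417 and 426 FPKM against 1037 and 1004 FPKM in DMSO and 280, 431 and 321 FPKM against 923, 601 and 748 FPKM in PKC412. No sample of MDA-MB-468 reached a sample of ZR75-1, and the log2 difference was -1.27 ± 0.24 in DMSO (limma adjusted p = 0.00325). COX6A1, the widely expressed form of subunit 6A, measured 666 and 585 FPKM with DMSO and 426, 544 and 459 FPKM with PKC412 in MDA-MB-468, against 1255 and 1263 FPKM with DMSO and 1168, 1340 and 777 FPKM with PKC412 in ZR75-1. Its log2 difference was -1.01 ± 0.25 in DMSO (limma adjusted p = 0.0119) and -1.17 ± 0.20 in PKC412. COX8A, the smallest nuclear subunit, pointed the other way with 1327 and 1189 FPKM against 822 and 796 FPKM in DMSO, but its difference of 0.63 ± 0.23 did not pass (limma adjusted p = 0.0567). After adjustment for GC content, COX8A passed in DMSO (0.54, limma adjusted p = 0.0156) and in PKC412 (0.51, limma adjusted p = 0.00606). COX5A and COX5B are subunits used in all tissues. COX5A (-0.03 ± 0.14) and COX5B (-0.35 ± 0.30) were called in neither contrast, nor were COX6B1 and COX7A2, while COX7C (-0.58 ± 0.16) and COX7B (0.64 ± 0.17) were called in PKC412 alone. The PKC412 calls of COX7C (limma adjusted p = 0.111) and COX7B (limma adjusted p = 0.174) were lost after adjustment for GC content.

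The tissue forms of complex IV subunits were near the limit of measurement in both lines. COX6A2 and COX7A1, known from heart and skeletal muscle, and COX6B2, COX7B2 and COX8C, known from testis, averaged 0.0522 to 0.184 FPKM over the 10 samples, where their widely expressed counterparts averaged 427 to 1306 FPKM. COX7B2 was listed above 0 in all 5 MDA-MB-468 samples (0.21 and 0.46 FPKM with DMSO, 0.22, 0.384 and 0.2 FPKM with PKC412) and at 0 in all 5 ZR75-1 samples. It passed limma in both contrasts, and no fold is given against a line listed at 0. COX8C and COX7A1 were listed at 0 in 7 and 6 of the samples.

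Complex V (ATP synthase) gave the most negative difference of the 86 genes in DMSO as deposited, in ATP5E, while NDUFA3 was lowest in PKC412 and after adjustment for GC content. Some of its stalk subunits were among those higher in MDA-MB-468. ATP5E, the epsilon subunit of the central stalk, measured 1219 and 1079 FPKM with DMSO and 588, 1155 and 739 FPKM with PKC412 in MDA-MB-468, against 4257 and 3575 FPKM with DMSO and 2412, 1927 and 1714 FPKM with PKC412 in ZR75-1. The lines were far apart in DMSO and closer in PKC412, with log2 differences of -1.77 ± 0.31 (limma adjusted p = 0.00223) and -1.33 ± 0.26 (limma adjusted p = 0.00245), and the DMSO call was lost after adjustment for GC content (-1.44, limma adjusted p = 0.112). ATP5I measured 1652 and 1297 FPKM with DMSO and 678, 1170 and 900 FPKM with PKC412 in MDA-MB-468, against 4239 and 2826 FPKM with DMSO and 2559, 2422 and 1524 FPKM with PKC412 in ZR75-1. The highest PKC412 sample of MDA-MB-468 stayed below the lowest of ZR75-1, and the log2 difference of ATP5I was -1.24 ± 0.35 in DMSO (limma adjusted p = 0.0221), a call lost in 3 of 38 refits. ATP5A1, the alpha subunit of the catalytic head (ATP5F1A), had 227 and 260 FPKM against 420 and 555 FPKM in DMSO (-0.99 ± 0.19), while ATP5B, the beta subunit that bears the catalytic sites (ATP5F1B), had 397 and 455 FPKM against 367 and 485 FPKM (0.01 ± 0.16, not called).

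Of the subunits of the peripheral stalk, which holds the catalytic head still, ATP5O and ATP5J were higher in both contrasts. ATP5O (the oligomycin sensitivity protein, ATP5PO) measured 778 and 784 FPKM with DMSO and 577, 746 and 630 FPKM with PKC412 in MDA-MB-468, against 316 and 309 FPKM with DMSO and 266, 212 and 241 FPKM with PKC412 in ZR75-1. Its log2 difference was 1.32 ± 0.16 in DMSO (limma adjusted p = 0.000247) and 1.44 ± 0.13 in PKC412 (limma adjusted p = 3.11e-05). ATP5J (coupling factor 6, ATP5PF) had 330 and 364 FPKM against 123 and 139 FPKM in DMSO and 259, 343 and 292 FPKM against 129, 95.9 and 126 FPKM in PKC412, a log2 difference of 1.40 ± 0.19 in DMSO (limma adjusted p = 0.000463). ATP5F1 (subunit b, ATP5PB) was called in PKC412 alone (0.88 ± 0.26), and ATP5H (subunit d, ATP5PD) was called in neither contrast (0.33 ± 0.15 in DMSO). After adjustment for GC content, ATP5F1 passed in DMSO as well (0.86, limma adjusted p = 0.00106). ATP5O and ATP5J lie on chromosome 21 and the other two on chromosomes 1 and 17. The 3 genes of the membrane c-ring, which encode the same mature protein, did not move as a set. ATP5G2 (353 and 345 FPKM against 734 and 656 FPKM in DMSO, -0.99 ± 0.17) and ATP5G1 (347 and 307 against 567 and 437 FPKM, -0.61 ± 0.18) were lower in MDA-MB-468, and ATP5G3 (85 and 107 against 68.4 and 117 FPKM, 0.09 ± 0.23) was not called.

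**Figure D3:**
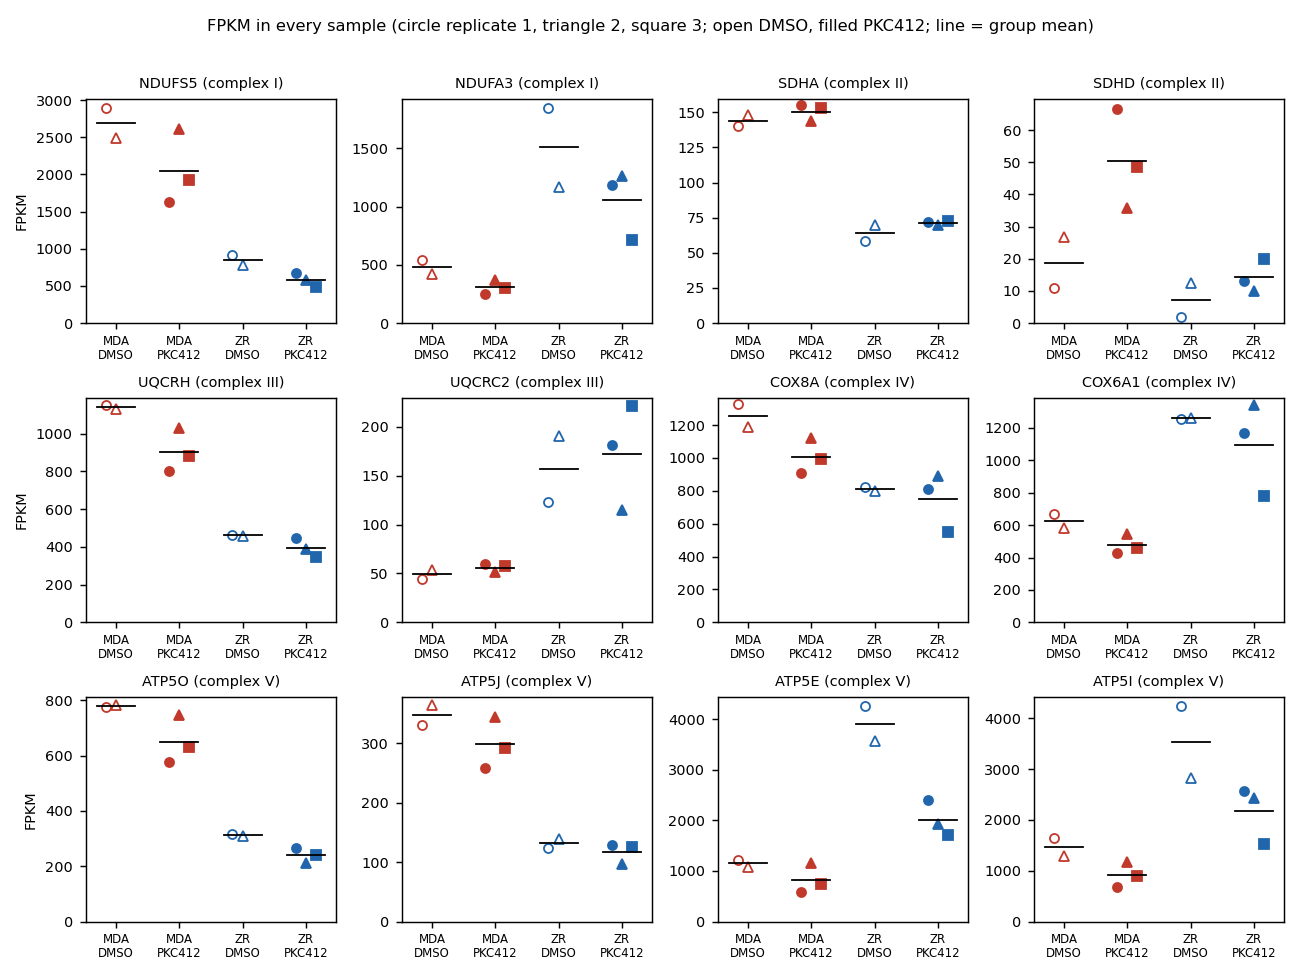
FPKM (y axes, linear from 0) of 12 respiratory chain genes in every sample of MDA-MB-468 (red) and ZR75-1 (blue) with DMSO (open) or PKC412 (filled), with symbols for replicate numbers and a line at each group mean. NDUFS5, SDHA, UQCRH, ATP5O and ATP5J are higher in MDA-MB-468, NDUFA3, UQCRC2, COX6A1, ATP5E and ATP5I are lower, and SDHD spreads widely among replicates of 1 group.

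Some of these genes have near-identical copies between which reads are hard to divide, and their values are uncertain. UQCRH and the intronless UQCRHL share 98.6% of 276 coding bases (4 differ, longest shared run 157 bases). Their FPKM ratio, UQCRHL to UQCRH, lay between 0.679 and 0.79 in all 10 samples, so the line difference of UQCRHL (1.29 ± 0.15) cannot be told apart from that of UQCRH, although both genes enter the counts and sums given above. The pseudogene UQCRBP1 shares 94.9% of 336 coding bases with UQCRB, with a ratio of 2.62 to 3.22, and ATP5L2 shares 91.4% of its coding bases with ATP5L (ATP5MG, subunit g) with a ratio of 0.00679 to 0.0101. ATP5EP2, on chromosome 13, is a processed pseudogene of ATP5E, which lies on chromosome 20, and differs from it at 6 of 156 coding bases (96.2% identity). The ratio of ATP5EP2 to ATP5E was 0.317 to 0.424 in all samples. The coding sequences of both are shown from GENCODE 29 on GRCh38 because the line difference of ATP5E rests on reads of this pair, with the differing bases in capitals.
ATP5E: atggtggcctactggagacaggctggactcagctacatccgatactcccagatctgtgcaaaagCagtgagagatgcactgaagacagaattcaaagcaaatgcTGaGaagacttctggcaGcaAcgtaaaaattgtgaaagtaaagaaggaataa
ATP5EP2: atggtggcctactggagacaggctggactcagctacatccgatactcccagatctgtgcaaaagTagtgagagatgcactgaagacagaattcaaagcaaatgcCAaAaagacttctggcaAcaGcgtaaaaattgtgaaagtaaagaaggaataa

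The first 64 bases are the same in both, so a read that lies within them cannot be placed by its letters. Of the 33 genes with a call in both contrasts, 6 belong to such pairs (UQCRH, UQCRHL, ATP5E, ATP5EP2, ATP5L and UQCRBP1). Other relatives were further apart and their reads are more easily divided: ATP5G1 and ATP5G2 share 72.7% of aligned coding bases, COX7B and COX7B2 80.1%, and the remaining pairs 58.2% to 71.7%.

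The line differences were set beside those of the genes around each member. Within 1 Mb of its position on GRCh38, 80 of the 86 genes had at least 5 other tested genes. The median DMSO line difference of those neighbours was above 0 for 12 of the 13 genes that were higher in both contrasts (median 0.41), for 5 of the 18 that were lower (median -0.11) and for 29 of the 49 others (median 0.07). Around NDUFS5 on chromosome 1, the 20 neighbours had a median of 0.87, and 12 of them were called higher and 1 lower. NDUFB10 on chromosome 16 had 73 neighbours with a median of -0.86, of which 42 were called lower and 2 higher. COX6C stood against its surroundings, at -1.27 where its 9 neighbours had a median of 0.49. COX8A, which was not called, had 39 neighbours with a median of 0.99, and 31 of them were called higher. The distance of 1 Mb was chosen after the data had been seen, neighbours share the samples with the member, and DNA copy number was not measured, so this is a description and its part in the line differences was not tested.

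**Figure D4:**
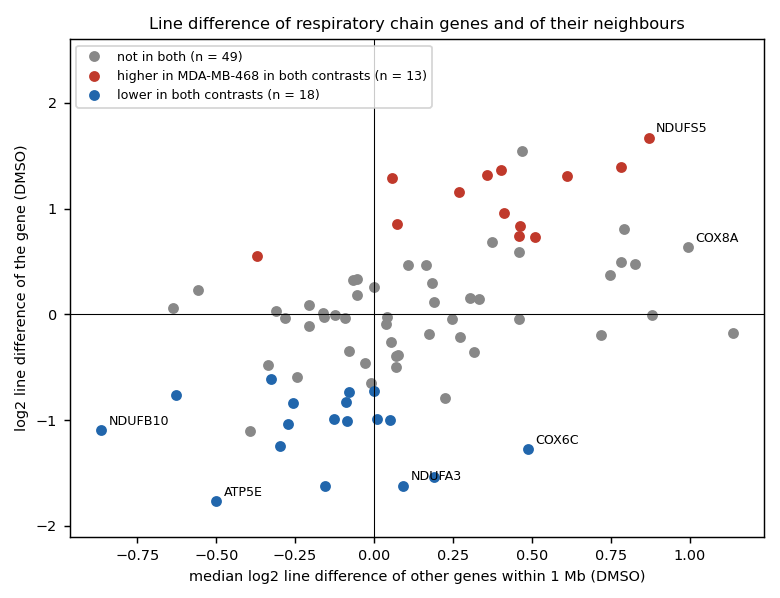
Log2 DMSO line difference (MDA-MB-468 minus ZR75-1) of each of 80 respiratory chain genes (y axis) against the median of the same difference over the other tested genes within 1 Mb (x axis), coloured by the call in both contrasts. Of the 13 genes that were higher in both contrasts 12 lie right of 0, the 18 lower ones lie mostly left, and COX6C is lower while its neighbours are higher.

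Genes that work with the chain included some with larger line differences than its subunits. Of 41 tested assembly factors, which insert cofactors and put the complexes together, 15 were higher in MDA-MB-468 in DMSO (26.5% of all genes) and 7 lower (15.9%), and in PKC412 21 were higher (37%) and 8 lower (21.6%), so the share of lower calls was near that of all genes. FOXRED1, an assembly factor of complex I, had DMSO means of 50.4 ± 2.27 FPKM (SD, n = 2) in MDA-MB-468 and 6.37 ± 0.32 FPKM (SD, n = 2) in ZR75-1, a log2 difference of 2.80 ± 0.13. SCO2, which delivers copper to complex IV, had 1.10 ± 0.478 FPKM and 34.8 ± 9.15 FPKM (SD, n = 2 each), a log2 difference of -4.09 ± 0.40. Both differences were larger than that of any of the 86 genes. Of 11 tested regulators of mitochondrial genes, 3 were higher in MDA-MB-468 in DMSO and 5 in PKC412, with none lower, and the share of higher calls in DMSO was near that of all genes. ESRRA, a nuclear receptor that drives respiratory genes, had DMSO means of 39.2 ± 0.613 FPKM and 18.5 ± 1.13 FPKM (SD, n = 2 each; 1.04 ± 0.16), and NRF1 itself had 4.04 ± 0.387 FPKM and 2.42 ± 0.356 FPKM (0.56 ± 0.17). Of 20 tested genes of the citric acid cycle and pyruvate dehydrogenase, 4 were higher and 1 was lower in DMSO, and 7 and 3 in PKC412, shares that did not exceed those of all genes. IDH3B, a subunit of NAD-dependent isocitrate dehydrogenase, showed 168 ± 3.99 FPKM against 48.5 ± 2.65 FPKM (1.77 ± 0.11), and PDK2, a kinase that inhibits pyruvate dehydrogenase, showed 3.42 ± 0.313 FPKM against 28.3 ± 1.84 FPKM (-2.73 ± 0.14).

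Subunits and carriers that the symbol rule leaves out gave a similar picture. Of 8 tested, 3 were lower in MDA-MB-468 in both contrasts (14.9% of all genes) and none was higher in DMSO (26.5%). NDUFAB1, the acyl carrier protein of complex I, had DMSO means of 200.5 ± 22.3 FPKM in MDA-MB-468 and 434.6 ± 0.141 FPKM in ZR75-1 (SD, n = 2 each; -1.12 ± 0.19). C14orf2, a small subunit of ATP synthase now named ATP5MJ, had 341 ± 1.99 FPKM and 1005 ± 227 FPKM (-1.54 ± 0.23), and ATPIF1, the inhibitor of the synthase, had 308 ± 38.5 FPKM and 677 ± 175 FPKM (-1.12 ± 0.27). COX4I1, the main form of subunit 4 of complex IV, averaged 1923 and 1280 FPKM in DMSO and was not called (0.61 ± 0.32), and neither was CYC1, the cytochrome c1 of complex III (-0.03 ± 0.17). The electron carrier cytochrome c, CYCS, passed in PKC412 alone, at 1.49 ± 0.47.

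The second comparison asked how 6 h of PKC412 changed these genes in each line. No gene of the chain passed the threshold in either line, where 1.26% and 0.946% of all genes tested did, and none passed for the difference of the responses between the lines (0.268% of all genes). The values nevertheless lay mostly below those of DMSO, while those of all genes lay mostly above. In MDA-MB-468 the log2 difference, PKC412 minus DMSO, was below 0 for 65 of the 86 genes, where 33% of all genes were, and in ZR75-1 for 61, where 33.5% were. The medians of the 86 genes were -0.31 and -0.23, against 0.11 and 0.07 over all genes. With each sample scaled to the same FPKM sum, 54 and 47 of the 86 were below 0 and the medians were -0.13 and -0.02, against 0.26 and 0.20 over all genes. Without that scaling, leaving out the third PKC412 replicate of ZR75-1 moved the median there from -0.23 to -0.14. Cytosolic ribosomal protein genes, which are likewise short and abundant, had medians of -0.36 and -0.34, and mitochondrial ribosomal protein genes had medians of -0.21 and -0.15, and none of either list passed. The FPKM sums of the PKC412 samples were below those of the DMSO samples in each line, so the scale of the values went with the agent. The counts of separate samples that follow are of FPKM as deposited and were not repeated with equal sums. All PKC412 samples lay below all DMSO samples for 47 of the 86 genes in MDA-MB-468 (16.3% of all genes) and above for 11 (39.6%). In ZR75-1 they lay below for 29 (6.98%) and above for 2 (14.8%). For 22 genes the PKC412 samples lay below in both lines, and for none above in both. The share of all genes that did so in both lines was not counted, so these counts cannot be weighed.

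At an unadjusted p under 0.05 in limma, 0 genes of the chain were higher (11.1% of all genes) and 9 lower (5.25%) in MDA-MB-468, and 1 was higher (ATP5B, 8.05% of all genes) and 13 lower (3.12%) in ZR75-1. For the difference of the responses 2 genes, NDUFA4L2 and COX6B2, had such a p (7.05% of all genes). The lowest adjusted p in MDA-MB-468 belonged to NDUFV3, a small flavoprotein subunit of complex I, with 55.9 and 54.1 FPKM in DMSO and 36.5, 44.2 and 39.2 FPKM in PKC412. Its log2 difference was -0.46 ± 0.12 (limma adjusted p = 0.135). In ZR75-1 it was ATP5E, with 4257 and 3575 FPKM in DMSO and 2412, 1927 and 1714 FPKM in PKC412 (-0.97 ± 0.29, limma adjusted p = 0.261). The PKC412 samples of both genes lay below all DMSO samples of their line, and neither passed the threshold. The responses in the lines share no samples, and their sign was the same for 93% of the 86 genes (20 above 0, 60 below) against 71% of all genes, with r = 0.878 across the 86 genes and 0.359 over all genes.

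The complexes differed in where their values lay. The median log2 responses in MDA-MB-468 and ZR75-1 were -0.37 and -0.23 for complex I, -0.29 and -0.31 in complex III, -0.31 and -0.25 in complex IV and -0.25 and -0.15 in complex V. In complex II they were 0.23 and 0.26, and all 4 genes were above 0 in both lines without passing, with SDHB at only 0.03 ± 0.17 in MDA-MB-468. After adjustment for GC content this no longer held, since SDHA (-0.08) and SDHB (-0.26) in MDA-MB-468 and SDHA (-0.04) in ZR75-1 were below 0. SDHD had the largest value of the 86 genes in each line, 1.45 ± 0.66 in MDA-MB-468 (limma adjusted p = 0.310) and 1.25 ± 0.66 in ZR75-1 (limma adjusted p = 0.533). Its PKC412 samples (66.6, 35.9 and 48.6 FPKM) lay above its DMSO samples (10.9 and 26.8 FPKM) in MDA-MB-468, while in ZR75-1 the PKC412 samples overlapped the DMSO samples because 1 of the latter reached 12.6 FPKM. The summed FPKM with PKC412 over that with DMSO was 0.730, 1.18, 0.825, 0.784 and 0.8 for complexes I to V in MDA-MB-468 and 0.730, 1.16, 0.836, 0.788 and 0.684 in ZR75-1, with no test. Scaling each sample to the same FPKM sum brought the ratio for all 86 genes from 0.772 to 0.883 in MDA-MB-468 and from 0.737 to 0.847 in ZR75-1.

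By the 3-fold rule of change that the study used, 0 genes of the chain were up-regulated in MDA-MB-468 (6.14% of all genes with a mean above 0.1 FPKM) and 1, COX7A1, was down-regulated (1.07%). In ZR75-1, 1 gene, COX8C, was up-regulated (3.15%) and 0 were down-regulated (0.932%). Both are tissue forms below 0.4 FPKM in every sample, and COX7A1 was listed at 0.221 and 0.105 FPKM with DMSO and at 0 in all 3 PKC412 samples of MDA-MB-468. With all samples kept, no gene of the chain above 1 FPKM met the rule. SDHD, above 1 FPKM in every sample, met it in MDA-MB-468 without the second PKC412 replicate. It also met it there without the second DMSO replicate, with 10.9 FPKM in the first against a PKC412 mean of 50.4 FPKM. In ZR75-1, SDHD met it without the second DMSO replicate. Without the second PKC412 replicate of MDA-MB-468 the count there was 3, and in ZR75-1 it was 4 without the second DMSO replicate and 0 without the third PKC412 replicate.

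The responses of the chain and, more weakly, those of all genes moved with GC content, and so did single samples. Over all genes above 1 FPKM, the slope of a sample's log2 deviation from its line's mean on GC content, per 10 percentage points, was 0.38 and 0.06 for the DMSO replicates of MDA-MB-468 and -0.29, -0.03 and -0.12 for its PKC412 replicates. In ZR75-1 it was 0.32 and -0.20 for DMSO and -0.11, 0.36 and -0.37 for PKC412. The slopes of the DMSO and PKC412 replicates thus overlapped in ZR75-1. In MDA-MB-468 they did not overlap, with both DMSO replicates above 0 and all PKC412 replicates below 0, so the slope went with the agent there. Across the 86 genes, r with GC content was -0.546 for the MDA-MB-468 response and -0.290 for that of ZR75-1. For the line differences it was 0.03 in DMSO and -0.10 in PKC412. Over the 15336 tested genes with a GC value, r was -0.409 and -0.114 for the responses, and -0.08 and -0.21 for the line differences. In MDA-MB-468 the median response was -0.07 among the 29 genes of lowest GC content (34.4% to 46.1%), of which 18 were below 0, -0.32 among the middle 28 (20 below 0) and -0.45 among the 29 of highest GC content (27 below 0). In ZR75-1 the medians were -0.07, -0.24 and -0.38, with 18, 19 and 24 genes below 0. After adjustment for GC content and transcript length, an alternative added after the data had been seen, the median responses were -0.37 and -0.29, with 79 and 65 of the 86 genes below 0 and 0 genes called, and r with GC content was 0.11 and -0.15. The median over all genes was then 0.007 in both lines, against 0.11 and 0.07 as deposited. Relative to that median, 79 and 66 of the 86 genes were lower, against 72 and 65 as deposited. The part of GC content and of the single libraries in the responses was not tested.

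**Figure D5:**
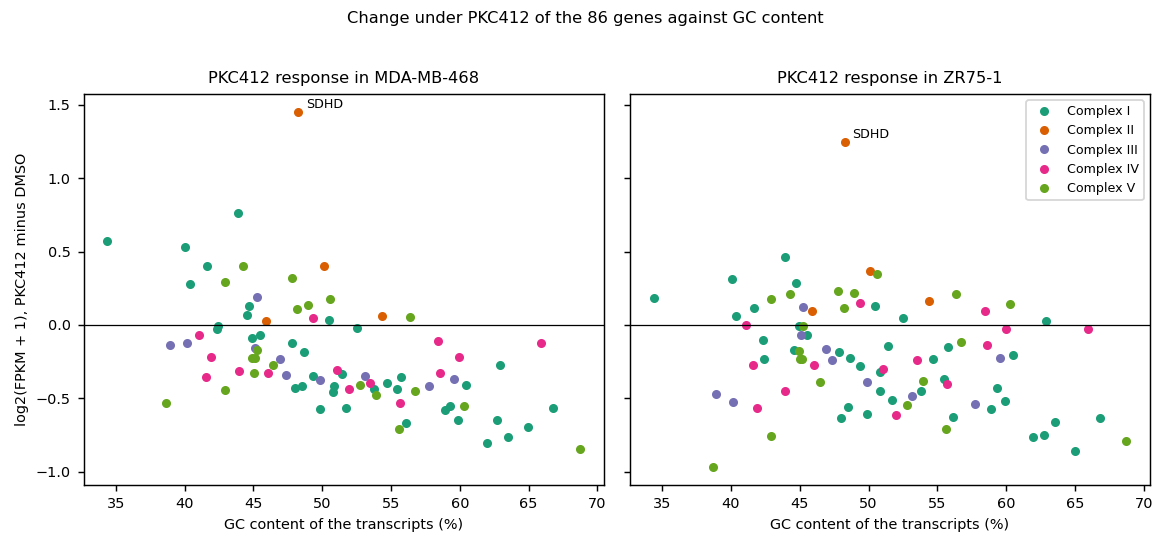
Log2 PKC412 response (PKC412 minus DMSO, log2(FPKM + 1) scale) of each of the 86 genes against the GC content of its transcript in percent, for each line, coloured by complex. Values fall with GC content in MDA-MB-468 (r = -0.546) and less so in ZR75-1 (r = -0.290), and SDHD stands highest in both. Over all tested genes with a GC value, which are not drawn, r was -0.409 and -0.114.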

How the data were processed

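RNA-seq of 10 samples was used, grouped by the cell line and agent in the sample labels. The authors deposited FPKM per gene symbol, made with an in-house pipeline, and the submitters' processing notes name TopHat2, CASAVA 1.82 and hg19. The annotation and its version are not given in the sources used here. No step of single reads was visible among the low values, so depth is unknown and precision comes only from the spread between replicates. Of 23426 genes, 3193 were 0 in every sample. Every column was used.

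From the deposited FPKM, log2(FPKM + 1) was computed, and limma 3.58.1 (R 4.3.3) was fitted to the 4 group means, with a trended eBayes and Benjamini-Hochberg adjustment at 0.05 over the 16071 genes with a mean above 0.1 FPKM in at least 1 group, leaving 6 residual degrees of freedom. Contrasts were the lines within each agent, the agents within each line, and the difference of the latter. The fit was tested on simulated data with known changes. Alternatives were a pseudocount of 0.1, other filters, FPKM scaled to equal sums or by median ratios, eBayes without the trend, the compared groups alone, the replicate number as a block, each sample left out, and adjustment for GC content and length. FPKM ratios of 3 between agents were counted without a pseudocount.

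Positions, length and GC content came from GENCODE 29 on GRCh38 by symbol, for 22002 genes (93.9%) and all 86 members, and promoters from RefSeq on GRCh38.p14. The authors' build was hg19, and coordinates here are not of that build. Coding sequences were aligned with edlib 1.3.9.post1. Python 3.11.15, numpy 2.4.6, pandas 2.3.3 and matplotlib 3.10.9 were used.

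The members, gene lists and tests were chosen with earlier results of these data known. Genes named with values were the 4 SDH genes, the most and least abundant of each complex, the isoform sets, up to 10 members in each direction with the largest line differences among those called in both contrasts, the 5 of lowest p of a response with under 3 calls, and up to 4 called genes of each other list. Further members were named after their values were seen, to describe partner subunits. The values of 1 member are not reported here.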

Additional observations from a re-analysis of the deposited data

How the results depend on the processing

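Under pseudocount, filter, scaling, trend, 2-group, replicate block, GC-adjusted and leave-one-out alternatives, no called line difference of the 86 genes changed sign, and the responses and their difference had 0 members called in each that was run (the difference was not run with the compared groups alone). Of the 33 genes called in both line contrasts, the calls of 33 were kept with a pseudocount of 0.1, without a filter and without the trend, 31 with a filter at 1 FPKM (NDUFA4L2 and COX7B2 were not tested), 31 with equal FPKM sums, 30 with median ratios, 26 with the compared groups alone, 28 after adjustment for GC content and length, and 26 to 33 with 1 sample left out. With 1 sample left out, members called higher in MDA-MB-468 numbered 12 to 17 in DMSO and 14 to 20 in PKC412, and those called lower numbered 13 to 22 and 17 to 26. The 3-fold counts were 1 to 3 in MDA-MB-468 and 0 to 4 in ZR75-1 with 1 sample left out, and 0 in both lines with 1 FPKM added to both means. Where 1 DMSO sample was left, it was assumed to vary like the other groups. In those fits fewer of all genes tested were called in the DMSO line contrast than with all samples.

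Equal FPKM sums moved the median of all genes to 0.17 and 0.28 for the line differences and 0.26 and 0.20 for the responses, and median ratios moved it to 0.04, 0.12, 0.04 and 0.02. The members' median responses were then -0.13 and -0.02, and -0.42 and -0.34. Relative to the median of all genes, 72 and 65 members were lower in the responses as deposited, 69 and 63 with equal sums and 74 and 70 with median ratios, while 11 and 14 members' responses changed sign with equal sums. The split of all genes called in the MDA-MB-468 response was 111 higher and 91 lower as deposited, 63 and 29 with equal sums, and 96 and 100 with median ratios. In ZR75-1 it was 120 and 32, 116 and 12, and 111 and 34.

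In DMSO the replicate block called 17 members higher and 21 lower in MDA-MB-468, against 4479 and 2566 of the 16071 genes tested. In PKC412 it called 20 and 25 members, against 6379 and 3520 of all genes tested. It kept 32 of the 33 calls, losing UQCRBP1. For the responses it called 0 genes of all tested, against 202 and 152 without it, with 2 residual degrees of freedom. Same-numbered samples had correlations of -0.39 to -0.02 across agents and -0.02 to 0.29 across lines. The deviations of 2 DMSO samples from their mean mirror each other, so this check cannot settle whether the numbers pair the samples.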

Other observations

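Among assembly factors and citric acid cycle genes, several genes with a direct link to the chain differed between the lines. MNF1 (UQCC2), a complex III assembly factor, had DMSO means of 125 ± 5.77 FPKM in MDA-MB-468 and 44.6 ± 9.79 FPKM in ZR75-1 (SD, n = 2 each), a log2 difference of 1.49 ± 0.22, and BCS1L, which inserts the Rieske protein UQCRFS1, had 39.9 ± 2.58 FPKM and 14.4 ± 0.0646 FPKM (1.41 ± 0.11). IDH3G had 214 ± 11.2 FPKM and 94.6 ± 12.1 FPKM (1.17 ± 0.15). None of the assembly factors, regulators or cycle genes passed the threshold in a PKC412 response. Of the other cell type markers, PECAM1 passed in MDA-MB-468 (0.31 on the log2 scale) and COL1A1 in ZR75-1 (1.49), at group means under 10 FPKM.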
